A study of Mus musculus with 40 samples.

Results

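The 10 genes described here set the pace of the G1 phase: Myc and its antagonist Mxd1, the D-type cyclins Ccnd1, Ccnd2 and Ccnd3, the atypical cyclin Ccng2, and the CDK inhibitors Cdkn1a, Cdkn1b, Cdkn2c and Cdkn2d. They were chosen by gene symbol for their function, with earlier results of these data known, and each is 1 row of a table of 27179 genes. The table holds poly(A) RNA-seq of bone marrow-derived macrophages (BMDMs), grown from mouse bone marrow with L-cell conditioned medium as the source of M-CSF. On the day before treatment, per the study's methods, the cells were moved to a medium listed without L-cell conditioned medium. The cells were then left untreated or given 10 ng/ml of lipopolysaccharide (LPS), the cell wall component of Gram-negative bacteria that activates TLR4. Cells of 4 wildtype (WT) mice and of 4 mice that lack Cpeb4 in all tissues (Cpeb4-/-) were each sampled at 0, 1, 3, 6 and 9 hr, which gave 40 libraries in 10 groups of 4. All mice were male and of a mixed C57BL/6J and 129 background, and no transgene or Cre was used in these groups. Since no cage held both genotypes, the cage and the genotype cannot be told apart. The question put to the 10 genes was how their mRNAs moved with LPS and whether they moved differently without CPEB4, a protein that binds cytoplasmic polyadenylation elements (CPEs) in 3′UTRs.

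Quiescent cells enter the cycle when mitogens such as M-CSF raise MYC and the D cyclins, which activate CDK4 and CDK6 and lead to the release of E2F from the retinoblastoma protein. CDK inhibitors of the INK4 family (Cdkn2c, p18; Cdkn2d, p19) bind CDK4 and CDK6, whereas those of the CIP/KIP family (Cdkn1a, p21; Cdkn1b, p27) bind cyclin-CDK complexes and restrain mainly CDK2. LPS is known to arrest macrophages that are growing in M-CSF. The values are rlog values, a log2 scale on which a difference of 1 is a 2-fold change. They are not scaled by transcript length and were therefore compared within a gene only. In bulk RNA, fewer cells that express a gene and less RNA per cell cannot be told apart.

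All 10 mRNAs carry an AUUUA word, the core of the AU-rich elements that destabilise many inflammatory transcripts, in the longest annotated 3′UTR, and all but Cdkn2d carry a CPE word there. The share of all genes with such words anywhere in the 3′UTR was not counted. The CPE words searched on the transcribed strand were TTTTAT and the longer TTTTAAT, the related words TTTTACT or else TTTTCAT, the word TTTTGT known as CPE-G, the word TTTTAAAT, and finally TTTTAAGT. Words of both kinds can share bases, as they do in Ccnd3. The last word of each kind is shown for Cdkn1b, Ccnd3, Ccnd1 and Myc, the 4 mRNAs whose change from untreated differed between the genotypes. Each is a stretch of 30 bases of the 3′UTR (GENCODE M21 on mm10, 5′ to 3′ on the transcribed strand) with the word in capitals.
Cdkn1b CPE, chr6:134925429-134925458 (+): gccaagtataatTTTTGTaatgtgtgaaaa
Cdkn1b AUUUA, chr6:134925266-134925295 (+): ttatactaacttATTTAtgttaaaaagaga
Ccnd3 CPE, chr17:47599330-47599359 (+): tgccgtggtcaTTTTAATttattgctttga
Ccnd3 AUUUA, chr17:47599334-47599363 (+): gtggtcattttaATTTAttgctttgaatac
Ccnd1 CPE, chr7:144930027-144930056 (-): gccaggttggctTTTTGTatttctggttga
Ccnd1 AUUUA, chr7:144930341-144930370 (-): ctccggtgcatcATTTAatctgttaggttc
Myc CPE, chr15:61990284-61990313 (+): atttaaagacaTTTTCATttttaaagttga
Myc AUUUA, chr15:61990272-61990301 (+): ataattttttttATTTAaagacattttcat
The Cdkn1b CPE lies 67 bases, the Ccnd3 CPE 344 bases, the Ccnd1 CPE 108 bases and the Myc CPE 73 bases before the transcript end. The 3′UTR of Cdkn1b (3439 bases) holds 14 CPE and 10 AUUUA words, that of Ccnd3 (915 bases) 1 of each, that of Ccnd1 (2676 bases) 15 and 5, and that of Myc (466 bases) 3 and 2. Per kilobase, these were 4.07 and 2.91 for Cdkn1b, 1.09 and 1.09 for Ccnd3, 5.61 and 1.87 for Ccnd1, and 6.44 and 4.29 for Myc. The medians over expressed genes with a 3′UTR of at least 300 bases were 2.6 CPE and 1.46 AUUUA words per kilobase. In the last 300 bases, 7 of the 10 genes held an AUUUA word, against 44.1% of the 10160 expressed genes with a 3′UTR of at least that length, and 5 of 10 held a CPE word, against 59.5%. These are matches of letters, and no binding was measured here.

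The libraries were uniform: the correlation of replicates of a group across genes lay between 0.992 and 0.998 over 60 pairs, and no 2 columns were identical. All 12 macrophage markers (such as Adgre1, Csf1r and Lyz2) had rlog values of 8.89 or more in every library, whereas Cd3e and Ly6g, which define T cells and neutrophils, did not pass 0.873 in any. Other genes on these lists were higher: Lck ranged from 4.69 to 8.51, S100a8 from 5.00 to 7.70 and S100a9 from 3.93 to 6.01 over the libraries, and Camp reached 5.00. The deposited Cpeb4 row counts the whole gene and does not resolve the deleted part. Its values fell apart by genotype at 6 hr only, where Cpeb4-/- were 1.27 lower (limma adjusted p = 0.00114), and overlapped at the other 4 times.

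LPS moved nearly every one of the 10 mRNAs, in both directions and on different schedules. Their group means were highest and lowest at the same times in both genotypes, with exceptions for the highest mean only. That of Ccnd1 was at 0 hr in WT and 1 hr in Cpeb4-/-, and that of Ccng2 at 3 hr in WT and 1 hr in Cpeb4-/-. For Cdkn1b, Ccnd3, Ccnd1 and Myc the size of the change differed between the genotypes at 1 or more times, as given below. Against untreated cells, 5 genes were higher and 2 lower after 1 hr in WT BMDMs (limma, adjusted p under 0.05), where 17.3% of all genes tested were called higher and 16.6% lower. After 3 hr, 5 were higher and 4 lower (32.5% and 35.3% of all genes). The counts after 6 hr were again 5 and 4 (38.7% and 39.2%), and after 9 hr they were 4 and 5 (35.9% and 35.6%). In Cpeb4-/- BMDMs, 5 were higher and 2 lower after 1 hr (23.8% and 20% of all genes) and 5 and 4 after 3 hr (34.4% and 36.9%). The later counts were 5 and 3 after 6 hr (39% and 40.1%) and 4 and 5 after 9 hr (36.4% each). From 3 hr on most of all genes were called as well, so the counts alone do not set the 10 genes apart.

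**Figure D1:**
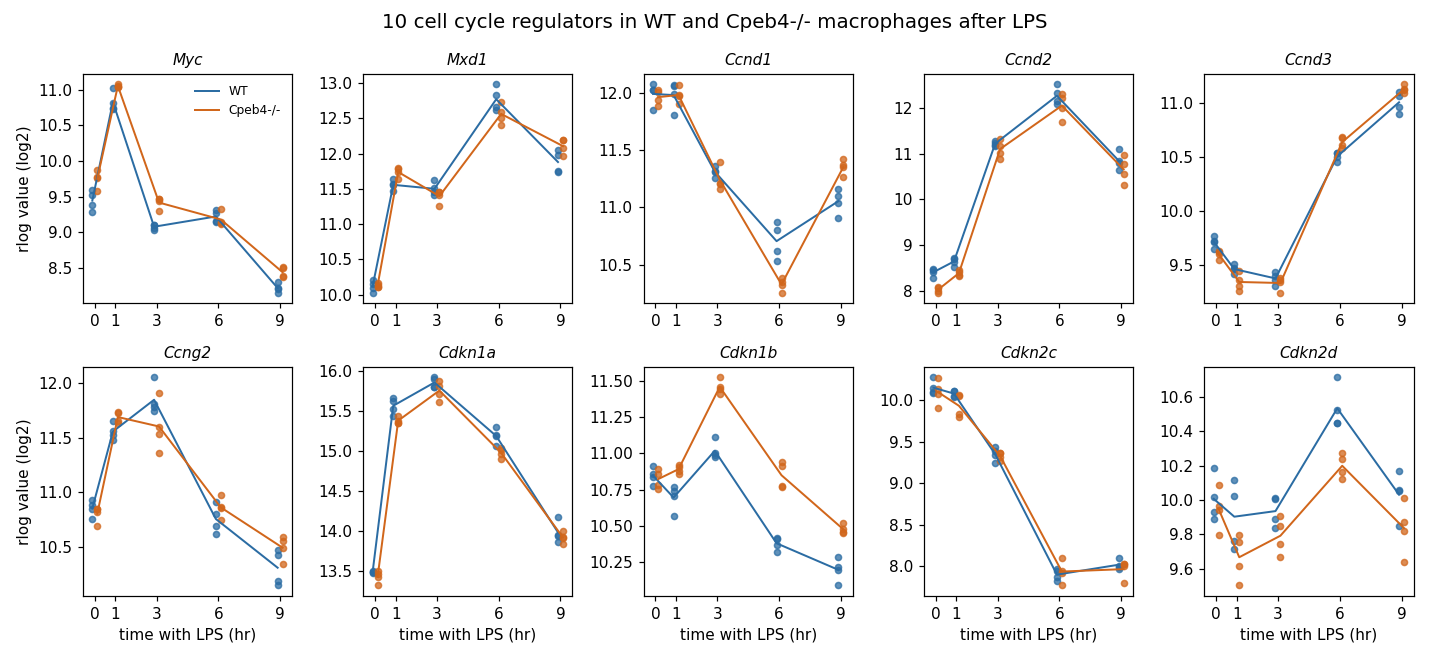
rlog value (log2) of each of the 10 genes against the time with LPS in hours; points are libraries, 4 per group, and lines join group means, blue for WT and orange for Cpeb4-/-. Ccnd2 peaked at 6 hr with group means of 12.26 in WT and 12.05 in Cpeb4-/-, and the Cdkn1b points of the genotypes parted at 1, 3, 6 and 9 hr. Each panel has its own axis range.

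Myc, the transcription factor that drives growth and cell cycle entry, was induced within 1 hr and was below its starting level from 3 hr on. In WT BMDMs its rlog value went from 9.44 ± 0.14 (SD, n = 4) to 10.83 ± 0.13 at 1 hr, a 2.61-fold increase (log2 change 1.39, SE 0.07, limma adjusted p = 1.4e-12), and then to 9.08 ± 0.04, 9.22 ± 0.08 and 8.21 ± 0.06 at 3, 6 and 9 hr. The fall at 9 hr was 2.34-fold (log2 change -1.23, SE 0.07). Every WT mouse followed this order of signs, although the small fall at 6 hr (log2 change -0.22, limma adjusted p = 0.0065) did not pass the test after quantile normalization (0.053). Cpeb4-/- BMDMs rose by 1.31 at 1 hr and were 0.57 and 1.31 below untreated at 6 and 9 hr on the log2 scale.

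The Myc values of the genotypes differed most at 3 hr. There the 4 WT libraries read 9.03, 9.06, 9.10 and 9.11, and the 4 Cpeb4-/- libraries 9.29, 9.44, 9.46 and 9.47. All Cpeb4-/- values were above all WT values, by 0.34 on average (SE 0.06, limma adjusted p = 0.0152; at 3 hr 3.68% of genes were called and 1.81% called higher). In untreated cells the WT libraries read 9.28, 9.39, 9.52 and 9.59 and the Cpeb4-/- libraries 9.57, 9.76, 9.78 and 9.87, with 1 overlapping pair and a difference of 0.31 (SE 0.08) that did not pass the test (limma adjusted p = 0.093). At 1 and 9 hr the values did not overlap, and the differences of 0.23 and 0.22 did not pass either (0.0784 and 0.0573). With all 40 libraries in 1 fit and the mouse as a replicate block, the Myc differences at 0, 1 and 9 hr passed (adjusted p = 0.0049, 0.0132 and 0.0164). At 6 hr the groups coincided, with 9.14, 9.16, 9.26 and 9.31 in WT and 9.11, 9.13, 9.14 and 9.33 in Cpeb4-/-, a difference of -0.04 (95% interval -0.18 to 0.09). Correspondingly, the change from 0 to 6 hr was 0.35 more negative in Cpeb4-/- than in WT (interaction, SE 0.09, limma adjusted p = 0.0319). The 3 hr call was lost without any 1 of Cpeb4-/- mice 2, 3 and 62 or WT mouse 25 (highest adjusted p = 0.0641), and the 6 hr interaction without any 1 of 5 mice (highest 0.194).

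Mxd1 encodes MAD1, which competes with MYC for MAX and represses MYC targets, and its mRNA was above untreated at every time after LPS. From an untreated WT level of 10.12 ± 0.08 it went to 11.56 ± 0.07, 11.50 ± 0.09, 12.77 ± 0.17 and 11.88 ± 0.16 after 1, 3, 6 and 9 hr. The increase at 6 hr was 6.27-fold in WT (log2 change 2.65, SE 0.08, limma adjusted p = 4e-17) and 5.39-fold in Cpeb4-/- (2.43, SE 0.06). Thus Myc was at its lowest and Mxd1 still 3.38-fold above untreated at 9 hr in WT. No Mxd1 difference between genotypes passed the test at any time. In the order of the times, the estimates were 0.01, 0.18, -0.10, -0.21 and 0.23, with adjusted p of 0.0831 or more. With the replicate block in the fit of 40 libraries, the values at 6 and 9 hr passed (adjusted p = 0.0461 and 0.0269).

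The 3 D cyclins, which bind CDK4 and CDK6, each took a different course. Ccnd1 fell, Ccnd2 rose steeply and Ccnd3 dipped and then rose late. Across the 10 group means Ccnd1 and Ccnd2 ran opposite (Pearson r = -0.94, n = 10 groups that share mice and an LPS course), while Ccnd2 and Ccnd3 had an r of 0.52.

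Ccnd2 changed more than any of the other 9 genes. In WT it read 8.41 ± 0.09 untreated and then, in the order of the times, 8.65 ± 0.09, 11.22 ± 0.06, 12.26 ± 0.19 and 10.85 ± 0.19. The 6 hr increase was 14.4-fold in WT (log2 change 3.85, SE 0.09, limma adjusted p = 6.8e-19) and 16.1-fold in Cpeb4-/- (4.01, SE 0.12). Before LPS, the WT libraries read 8.28, 8.42, 8.46 and 8.49 and the Cpeb4-/- libraries 7.97, 8.01, 8.08 and 8.09. Every untreated Cpeb4-/- library was below every WT library, by 0.38 on average (SE 0.06, 1.3-fold, limma adjusted p = 0.0223). Ccnd2 was the 1 gene of the 10 called at 0 hr, where 1.31% of all genes were called and 0.565% called lower. This call was lost in 6 of 15 alternatives (highest adjusted p = 0.0813), among them leaving out Cpeb4-/- mouse 2, 3 or 62 or WT mouse 25. After LPS, Ccnd2 was 0.26, 0.12, 0.21 and 0.19 lower in Cpeb4-/- on average at 1, 3, 6 and 9 hr, and none of these passed (adjusted p from 0.0696 to 0.401). At 9 hr, the difference was 0.02 in sequencing batch 1 and -0.40 in batch 2.

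Ccnd1 was flat for 1 hr and then fell in both genotypes. WT means were 11.99 ± 0.10, 11.98 ± 0.12, 11.31 ± 0.04, 10.71 ± 0.16 and 11.05 ± 0.11 at 0, 1, 3, 6 and 9 hr. After 1 hr the change was -0.01 for WT and 0.02 for Cpeb4-/-, but after quantile normalization Ccnd1 was lower at this time in both (-0.23 and -0.20). At 6 hr it had fallen 2.43-fold in WT (log2 change -1.28, SE 0.08) and 3.1-fold in Cpeb4-/- (-1.63, SE 0.05), and at 9 hr it was 1.91-fold and 1.53-fold below untreated.

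The genotype difference of Ccnd1 changed sign between 6 and 9 hr. At 6 hr the WT libraries read 10.53, 10.62, 10.80 and 10.87 and the Cpeb4-/- libraries 10.26, 10.32, 10.35 and 10.39, so that every Cpeb4-/- value was the lower. At 9 hr the WT libraries read 10.91, 11.04, 11.10 and 11.16 and the Cpeb4-/- libraries 11.26, 11.35, 11.37 and 11.42, with every Cpeb4-/- value the higher. The difference was -0.38 at 6 hr (SE 0.07, limma adjusted p = 0.00359) and 0.30 at 9 hr (SE 0.06, adjusted p = 0.0189), and the 2 batches gave -0.36 and -0.39 at 6 hr and 0.27 and 0.32 at 9 hr. Earlier, the differences were -0.03, 0.00 and -0.07 at 0, 1 and 3 hr. As a change from untreated, the 6 hr effect was 0.35 more negative in Cpeb4-/- (interaction, SE 0.09, limma adjusted p = 0.0315) and the 9 hr effect 0.33 more positive (adjusted p = 0.0616, and 0.0286 with the mouse as a replicate block). The 6 hr difference passed in all 15 alternatives, whereas the 9 hr difference was lost without WT mouse 25 or 69 or Cpeb4-/- mouse 55 (highest adjusted p = 0.0589). The 6 hr interaction was lost in 6 of 13 alternatives (highest adjusted p = 0.199), which were quantile normalization and leaving out Cpeb4-/- mouse 2, 3 or 62 or WT mouse 69 or 88.

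Ccnd3 was 9.72 ± 0.05 in untreated WT cells, 9.38 ± 0.06 at 3 hr and 11.01 ± 0.10 at 9 hr. The late rise was 2.45-fold in WT (log2 change 1.29, SE 0.05) and 2.89-fold in Cpeb4-/- (1.53, SE 0.04). The estimate of the Ccnd3 genotype difference was below 0 in untreated cells and above 0 from 6 hr on. Untreated WT libraries read 9.65, 9.72, 9.73 and 9.77 and Cpeb4-/- libraries 9.55, 9.61, 9.62 and 9.63, a difference of -0.12 that did not pass (adjusted p = 0.24), and at 6 hr they read 10.46, 10.50, 10.54 and 10.54 against 10.58, 10.61, 10.68 and 10.69. Neither pair of groups overlapped. At 9 hr the values overlapped, and the difference of 0.12 did not pass (adjusted p = 0.191). The 6 hr difference of 0.13 (SE 0.04) passed narrowly (limma adjusted p = 0.0466) and was lost in 10 of 15 alternatives (highest 0.136), among them leaving out any 1 mouse but Cpeb4-/- mouse 55. The interaction was 0.25 at 6 hr (SE 0.06, limma adjusted p = 0.0226) and 0.24 at 9 hr (adjusted p = 0.0374), and it was lost in 4 and 6 of 13 alternatives, all of them fits with 1 mouse left out (highest 0.179 and 0.195).

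Ccng2, an unconventional cyclin that slows the cycle and is a known FOXO target, rose early and fell late. It went in WT from 10.86 ± 0.07 to 11.55 ± 0.07 at 1 hr and 11.84 ± 0.14 at 3 hr, a 1.98-fold increase (log2 change 0.99, SE 0.08, limma adjusted p = 8.7e-10), and it was 1.45-fold below untreated at 9 hr (10.32 ± 0.16). In Cpeb4-/- the values were 10.81, 11.69, 11.60, 10.86 and 10.50 on average. After 6 hr its change from untreated was -0.10 (WT) and 0.06 (Cpeb4-/-) and passed in neither, but after quantile normalization it was lower in both (-0.39 and -0.21). No genotype difference of Ccng2 passed, and the largest was -0.24 at 3 hr (95% interval -0.48 to -0.01, adjusted p = 0.203; 0.0322 with the replicate block), where the batches gave -0.45 and -0.04.

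Of the CIP/KIP inhibitors, Cdkn1a (p21) responded to LPS within 1 hr, and Cdkn1b (p27) was called between the genotypes at more times than Cdkn1a. In WT, Cdkn1a rose from 13.49 ± 0.01 to 15.56 ± 0.10 at 1 hr and 15.86 ± 0.06 at 3 hr, 5.15-fold above untreated (log2 change 2.36, SE 0.06, limma adjusted p = 1.6e-17). It then declined to 15.19 ± 0.09 at 6 hr and 13.98 ± 0.14 at 9 hr. Cpeb4-/- cells reached 5.03-fold at 3 hr. At 9 hr both genotypes were still 0.49 above untreated by these values, but after quantile normalization the sign turned (-0.13 in WT and -0.072 in Cpeb4-/-) and neither passed. At 1 hr all Cpeb4-/- values were below all WT values, by 0.19 on average, which did not pass (limma adjusted p = 0.0879). This difference passed with all 40 libraries in 1 fit, with and without the replicate block, and without WT mouse 69. At 6 hr the WT libraries read 15.07, 15.19, 15.19 and 15.30 and the Cpeb4-/- libraries 14.89, 14.96, 15.01 and 15.04. All Cpeb4-/- values were below the lowest WT value, by 0.21 on average (SE 0.06, limma adjusted p = 0.0226), and the call was lost in 6 of 15 alternatives (highest 0.189, after quantile normalization), among them leaving out Cpeb4-/- mouse 62 or WT mouse 69 or 87. The change of Cdkn1a from untreated to 6 hr did not differ detectably between genotypes (interaction -0.15, adjusted p = 0.431).

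Cdkn1b was the gene of the 10 called between genotypes at the most times. Untreated, the WT libraries read 10.78, 10.84, 10.86 and 10.91 and the Cpeb4-/- libraries 10.75, 10.78, 10.86 and 10.89, so the groups overlapped fully (difference -0.03, SE 0.05, adjusted p = 0.795). At 3 hr the WT libraries read 10.97, 10.99, 11.00 and 11.11 and the Cpeb4-/- libraries 11.41, 11.44, 11.45 and 11.52. At 6 hr they read 10.32, 10.37, 10.41 and 10.42 against 10.77, 10.77, 10.91 and 10.94. The lowest Cpeb4-/- library was well above the highest WT library at both times. At 9 hr the values were 10.09, 10.19, 10.22 and 10.29 in WT and 10.45, 10.46, 10.48 and 10.52 in Cpeb4-/-, again without overlap.

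The Cdkn1b difference was 0.44 at 3 hr (SE 0.05, 1.36-fold, limma adjusted p = 0.0018), 0.47 at 6 hr (SE 0.05, 1.38-fold, adjusted p = 0.000196) and 0.28 at 9 hr (SE 0.05, 1.21-fold, adjusted p = 0.0129). Already at 1 hr all Cpeb4-/- values (10.86 to 10.92) were above all WT values (10.57 to 10.77), by 0.20, which did not pass (adjusted p = 0.0741; 0.0044 with the replicate block). The batches gave nearly equal values, with 0.45 and 0.43 at 3 hr, 0.47 and 0.46 at 6 hr and 0.31 and 0.25 at 9 hr. In all 15 alternatives, including leaving out each mouse in turn, the 3, 6 and 9 hr differences passed, with a highest adjusted p of 0.0134, 0.00524 and 0.0495. For a single gene, the two-sided exact permutation test of 4 against 4 cannot go below 0.0286, and Cdkn1b reached this value at 1, 3, 6 and 9 hr.

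In WT cells, Cdkn1b fell slightly at 1 hr (-0.15, limma adjusted p = 0.0285, but lost without any 1 of the 4 mice, highest 0.0969), was 0.17 above untreated at 3 hr (limma adjusted p = 0.0066, but -0.054 after quantile normalization), and fell by 0.47 at 6 hr and by 0.65 at 9 hr. In Cpeb4-/- cells it rose by 0.64 at 3 hr (adjusted p = 3.8e-11), was 0.03 from untreated at 6 hr (-0.24 after quantile normalization) and fell by 0.35 at 9 hr. The signed change from untreated was thus more positive in Cpeb4-/- by 0.47 at 3 hr (SE 0.07, limma adjusted p = 0.000412), by 0.49 at 6 hr (3.52e-05) and by 0.30 at 9 hr (0.00832). At 9 hr this was a smaller fall than in WT. The 3 and 6 hr interactions passed in all 13 alternatives, and that at 9 hr was lost without Cpeb4-/- mouse 3 or 62 or WT mouse 25 (highest adjusted p = 0.0756).

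**Figure D2:**
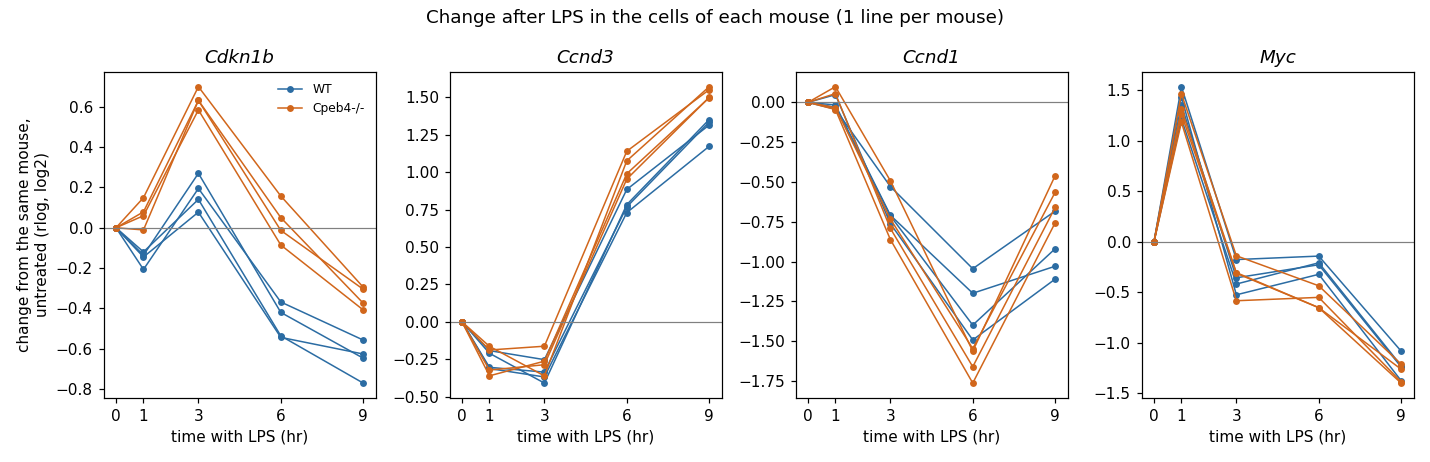
Change in rlog value (log2) from the untreated cells of the same mouse against the time with LPS in hours, for Cdkn1b, Ccnd3, Ccnd1 and Myc; each line is 1 mouse, blue for WT and orange for Cpeb4-/-. For Cdkn1b the 4 Cpeb4-/- lines lie between 0.58 and 0.70 at 3 hr and the 4 WT lines between 0.08 and 0.27.

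Among the INK4 inhibitors, Cdkn2c (p18) fell with LPS and Cdkn2d (p19) moved little. In WT, Cdkn2c went from 10.15 ± 0.09 untreated to 9.35 ± 0.08, 7.90 ± 0.07 and 8.02 ± 0.06 after 3, 6 and 9 hr. The fall at 6 hr was 4.78-fold (log2 change -2.26, SE 0.06, limma adjusted p = 1.6e-18) in WT and 4.48-fold in Cpeb4-/-, and it appeared in 4 of 4 mice of each genotype. Its change at 1 hr in Cpeb4-/- was -0.16 (adjusted p = 0.117; 0.0307 with the mouse as a replicate block). Between genotypes, Cdkn2c differed by between -0.15 and 0.04, and no time passed. At 6 hr, where Cdkn2c was lowest, the 95% interval of the difference was -0.13 to 0.20.

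Cdkn2d rose at 6 hr by 0.53 in WT (SE 0.09, limma adjusted p = 2.7e-05) and by 0.25 in Cpeb4-/- (adjusted p = 0.0067, and 0.12 after quantile normalization). In Cpeb4-/- cells it was also 0.28 lower at 1 hr than untreated (adjusted p = 0.0068; lost without mouse 3 or 55, highest 0.0519), while its change at 3 hr was -0.16 (0.086, and 0.0189 with the mouse as a replicate block). At 6 hr the WT libraries read 10.45, 10.45, 10.52 and 10.72 and the Cpeb4-/- libraries 10.12, 10.16, 10.24 and 10.27. All Cpeb4-/- values were the lower, by 0.34 on average (SE 0.06, limma adjusted p = 0.00383), which passed in all 15 alternatives. The batches gave -0.44 and -0.23. The other 4 times gave estimates of -0.06 to -0.24 that did not pass. Of these, the 1 hr value of -0.24 passed with all 40 libraries in 1 fit (adjusted p = 0.0407, and 0.0322 with the replicate block), and the 9 hr value passed without Cpeb4-/- mouse 2 (0.0269). The change of Cdkn2d from untreated at 6 hr did not differ detectably between genotypes (interaction -0.28, adjusted p = 0.274).

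Counted over the 10 genes, the genotypes differed in 1, 0, 2, 5 and 2 genes in the order of the 5 times. The shares of all genes tested were 1.31%, 1.91%, 3.68%, 16.3% and 7.91%, so that both the 10 genes and all genes had their highest count at 6 hr. At 1 hr, 7 of the 10 had an unadjusted limma p under 0.05, no other tool was run, and the share of all genes under it was not counted. With all 40 libraries in 1 fit, 5 of the 10 passed at 1 hr, where 4182 of 13103 genes passed. Of the 5 genes called at 6 hr, Cdkn1b and Ccnd3 were higher in Cpeb4-/- (6.4% of all genes) and Ccnd1, Cdkn1a and Cdkn2d lower (9.92%), and both genes called at 9 hr were higher (4.69%). Values of the genotypes did not overlap for 2, 5, 2, 5 and 3 of the 10 genes at 0, 1, 3, 6 and 9 hr, where the shares of all genes were 10.5%, 15.7%, 13.6%, 20.2% and 16.9%. The change from untreated differed between genotypes for 0 of 10 genes at 1 hr, where 0.00763% of all genes were called. At that time 1 of the 10 had an unadjusted limma p under 0.05, and the share of all genes under it was not counted. The change differed for 1 gene at 3 hr, where 0.206% of all genes were called, for 4 after 6 hr (2.94%) and for 2 after 9 hr (1.76%).

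**Figure D3:**
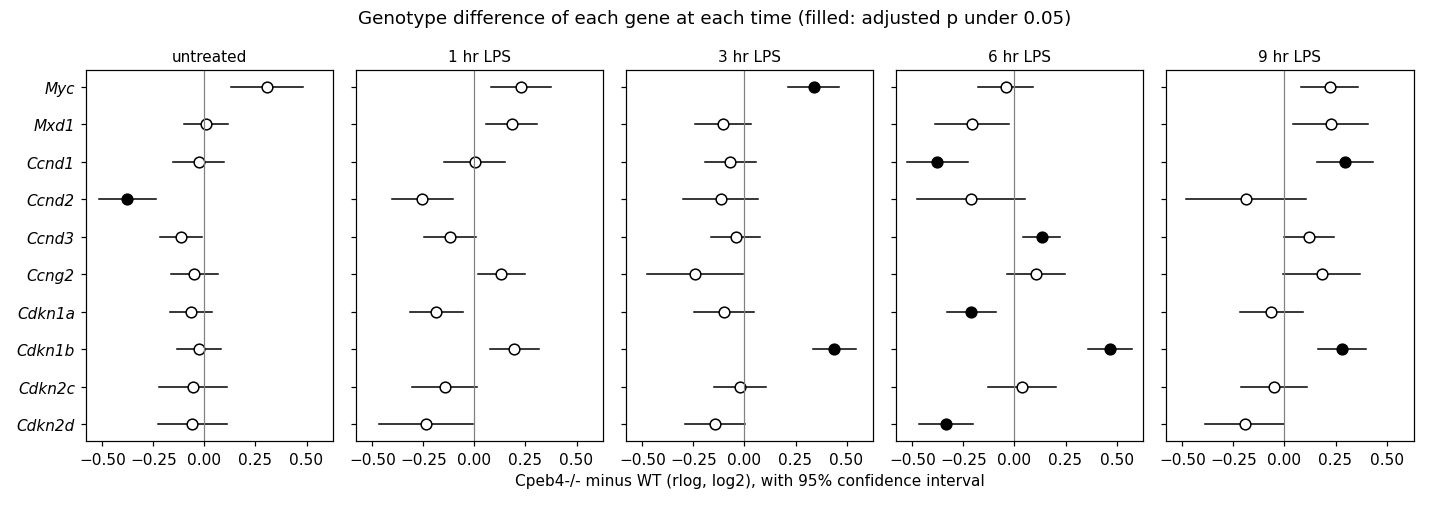
Cpeb4-/- minus WT difference in rlog value (log2) of each of the 10 genes, 1 panel per time; circles are estimates from 4 against 4 libraries, bars 95% confidence intervals, and filled circles have an adjusted p under 0.05. Cdkn1b is filled on the right of 0 at 3, 6 and 9 hr (0.44, 0.47 and 0.28), and Ccnd1 is filled on the left at 6 hr (-0.38) and on the right at 9 hr (0.30).

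Macrophage markers moved with the genotype at the same times. Of the 12, 1, 1, 3, 7 and 5 were lower in Cpeb4-/- at 0, 1, 3, 6 and 9 hr and none was higher. The shares of all genes called in either direction were 1.31%, 1.91%, 3.68%, 16.3% and 7.91%. Of all genes, 0.565% were called lower at 0 hr, and 1.81% and 4.69% were called higher at 3 and 9 hr. After 6 hr, when 9.92% of all genes were called lower, the median difference of the markers was -0.25, against -0.02 over all genes. The mean rlog value over these 12 markers lay between 14.21 and 14.29 in the 4 WT libraries of 6 hr and between 13.98 and 14.11 in the 4 Cpeb4-/- libraries. Markers of other cells mostly lay below the filter, but some were well above it. Pf4, on the megakaryocyte and erythroid list, had a median rlog value of 12.33 over the libraries. The medians of Pdgfrb (stromal) and Xcr1 (dendritic cell) were 7.96 and 6.07. At 6 hr 1 of 5 T cell, 3 of 7 neutrophil, 3 of 4 dendritic cell, 0 of 4 mast cell, 2 of 5 stromal and 2 of 5 megakaryocyte and erythroid markers were tested. Of these, 1 T cell and 1 dendritic cell marker were lower in Cpeb4-/- and 1 stromal marker was higher. The part of these differences in those of the 10 genes was not tested.

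The downstream machinery fell in both genotypes. Of 20 genes of S phase and mitosis, 20 were lower than untreated at 6 hr and 20 at 9 hr in WT and in Cpeb4-/- alike. Of all genes, 39.2% and 35.6% were called lower at these times in WT, and 40.1% and 36.4% in Cpeb4-/-. After 6 hr, the median change of the 20 genes was -1.68 in WT and -1.53 in Cpeb4-/-, where the median of all genes was -0.02 in both. Rrm2, a subunit of ribonucleotide reductase, fell by 2.92 in WT (SE 0.08), and Mcm7, part of the replicative helicase, fell by 2.48 on the log2 scale. At 3 hr 13 of the 20 were lower and 1 higher in each genotype (35.3% and 32.5% of all genes in WT, 36.9% and 34.4% in Cpeb4-/-). Between genotypes at 6 hr, Mcm6 (-0.33), Pcna (-0.24) and Mcm5 (-0.17) were lower in Cpeb4-/- and Cdc20 (0.38) and Aurkb (0.31) higher. The median over the 20 genes was 0.09, and 9.92% of all genes were called lower and 6.4% higher. Mcm6 and Pcna passed in all 15 alternatives, while Cdc20 was lost in 6 and Aurkb and Mcm5 in 9 each (highest adjusted p = 0.115, 0.125 and 0.0988).

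Of 18 other genes of the G1 machinery, 5 were higher and 10 lower at 6 hr in each genotype, where 38.7% and 39.2% of all genes were called in WT and 39% and 40.1% in Cpeb4-/-. E2f2, an activating E2F, fell by 3.84 in WT (SE 0.07) and Cdk2 by 1.49 on the log2 scale, whereas Cdk6, a partner of the D cyclins, was 1.84 higher at 3 hr. Between genotypes at 6 hr, Cdk4 was 0.33 higher in Cpeb4-/- (SE 0.05, limma adjusted p = 0.00092) and the repressor E2f4 0.19 higher, while Cdk6 was 0.23 and Rbl1 0.35 lower. Of all genes, 6.4% were called higher and 9.92% lower between genotypes at this time. Cdk4 and E2f4 passed at 6 hr in all 15 alternatives, and Cdk6 and Rbl1 were lost in 10 and 7 (highest adjusted p = 0.112 and 0.174). At 3 hr Ccne1, which activates CDK2, was 0.79 lower in Cpeb4-/- (SE 0.12, adjusted p = 0.013), and its change from untreated differed by -0.70 (adjusted p = 0.025; lost in 6 of 13 alternatives, highest 0.189).

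Of 9 other genes of the MAX network tested, 4 were higher and 4 lower at 6 hr in each genotype, near the shares of all genes (38.7% and 39.2% in WT, 39% and 40.1% in Cpeb4-/-). In WT, Max, the shared partner of MYC and MAD1, was 1.49 above untreated at 6 hr and Mycl 3.33 above at 3 hr, while Mxd3 fell by 2.90 at 6 hr. Max was 0.30 lower in Cpeb4-/- at 6 hr (SE 0.04, limma adjusted p = 0.0008). Mxi1, another MYC antagonist, was 0.80 higher in Cpeb4-/- at 9 hr (SE 0.12, adjusted p = 0.0051).

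Among 19 known MYC targets tested, 6 were higher and 1 lower at 1 hr in WT, when Myc peaked (17.3% and 16.6% of all genes). At 3 hr, when Myc had returned below its starting level, 14 were higher and 0 lower (32.5% and 35.3%). In Cpeb4-/- 15 were higher and 0 lower at 3 hr (34.4% and 36.9%). After 3 hr, the median change was 0.31 for WT and 0.44 for Cpeb4-/-, with Wdr43 1.50 and Nop58 0.98 higher in WT, both of which act in ribosome biogenesis. After 6 hr, Cpeb4-/- cells had more mRNA of 6 of the 19 and less of 0, where 6.4% of all genes were called higher. Nop58 and Hspd1 led these with 0.23 each (limma adjusted p = 0.0079 and 0.0084) and passed in all 15 alternatives, whereas the other 4 were lost in 9 to 11 of them. The 6 hr median over the 19 targets was 0.14, at the time when Myc itself did not differ. By limma's interaction test, their change from untreated to 6 hr was not more positive in Cpeb4-/- for any. For 1, Wdr43, it was more negative (-0.24, adjusted p = 0.017, lost in 4 of 13 alternatives, highest 0.153).

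Of 13 other targets of p53, whose best known target is Cdkn1a, 4 were higher and 2 lower in WT at 1 hr (17.3% and 16.6% of all genes). Those higher were Btg2 (1.77), Gadd45a (1.71), Mdm2 (1.35) and Pmaip1 (1.25), and those lower were Sesn1 (-1.08) and Bbc3 (-0.24). At 3 hr, when Cdkn1a peaked, 2 were higher, Aen (0.97) and Mdm2 (0.46), and 9 lower (32.5% and 35.3% of all genes). Sesn1 fell by 3.04 at this time. Both Aen and Mdm2 were also higher at 6 and 9 hr. At 6 hr 1 of 13, Phlda3, differed between genotypes and was 0.41 lower in Cpeb4-/- (limma adjusted p = 0.013, lost in 1 of 15 alternatives). Other p53 targets were higher in Cpeb4-/- at other times. Trp53inp1 was 0.44 higher at 9 hr (adjusted p = 0.0148, lost in 2 of 15 alternatives). At 3 hr Eda2r, which reached an rlog value of 3.55 at most, was 0.89 higher (0.0196, lost in 5 of 12 alternatives, highest 0.0715). Of 12 FOXO targets, a class that also includes Cdkn1b and Ccng2, 3 were higher at 9 hr in Cpeb4-/- and 0 lower, namely Txnip (0.33), Bcl2l11 (0.29) and Fbxo32 (0.79), where 4.69% of all genes were called higher. At 6 hr 2 of the 12 were higher, Txnip (0.18) and Bcl2l11 (0.21), and 2 lower, Bcl6 (-0.42) and Sesn3 (-0.49), against 6.4% and 9.92% of all genes. Klf2 (0.46) and Bcl2l11 (0.29) were higher at 3 hr, where 1.81% of all genes were called higher. Each of these 3 hr calls was lost in 9 of 15 alternatives (highest adjusted p = 0.122). Bcl2l11 at 6 hr was lost in 2 of 15 and Fbxo32 at 9 hr in 1 of 15 (highest 0.061 and 0.0548). The other FOXO calls named here passed in all 15. Sesn1 and Gadd45a stand on both the p53 and the FOXO list.

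**Figure D4:**
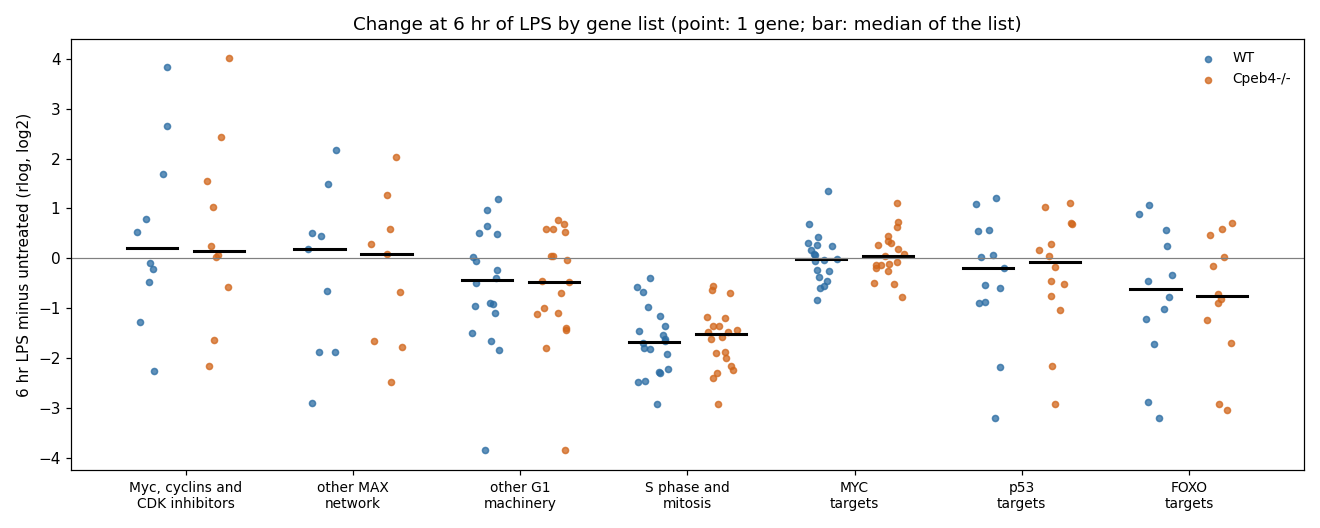
Change in rlog value (log2) from untreated to 6 hr of LPS for the genes of each list, blue for WT and orange for Cpeb4-/-; each point is 1 gene and each bar the median of its list. All 20 genes of S phase and mitosis lie below 0 in both genotypes (medians -1.68 and -1.53), while the 10 cyclins, CDK inhibitors and MYC factors spread from -2.26 to 3.85 in WT.

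Over the 10 group means, 5442 other genes with a span of at least 1 were ranked by Pearson r with each of the 10 genes that reached this span itself. The ranking is a description of shared time courses. Myc was matched most closely by Mbtd1 (r = 0.984), Egr2 (0.966) and Olfr920 (0.960), and Cdkn1a by Csf1 (0.994), Col11a2 (0.990) and Il10 (0.982). Cdkn2c was matched by Haus5, Rad51ap1 and Ephb6 (0.997 to 0.999), the first a spindle component and the second a DNA repair factor. Ccnd2 ran with Epb41l4b, Trafd1 and Usp18 (0.996 to 0.997), of which Trafd1 and Usp18 are known interferon-induced regulators. Cdkn1b was matched by Gar1 and Pus7, which act in RNA pseudouridylation, and by Proz (0.952 to 0.968). For the others the 3 closest genes were Ralgds, Tmem132a and Ndel1 for Mxd1, Tnfrsf23, Nuak1 and Plcb2 for Ccnd1, Apba3, Slc38a7 and Lrfn1 for Ccnd3, and Ngp, Gtf2b and Uap1 for Ccng2 (r from 0.967 to 0.989). Cdkn2d varied too little over the groups for this ranking, with group means spanning 0.868.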

How the data were processed

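Per the labels and the study's methods, the authors aligned reads to mm10 with STAR 2.3.0e, counted them per gene with featureCounts and made rlog values with DESeq2. The deposited table holds these log2 values for 27179 genes and 40 libraries, of which 6395 genes are at 0 throughout. It holds no counts, so the depth of each library is not known here and the authors' count test was not repeated. rlog shrinks differences of low genes towards 0. Values were fitted with limma 3.58.1 (R 4.3.3; lmFit, eBayes with trend) over those genes whose average rlog reached log2 of 5, with Benjamini-Hochberg adjustment over all of them and a threshold of 0.05: genotypes at each time in the 8 libraries of that time, changes from untreated in the 20 libraries of a genotype, and the interaction in all 40. Single values also had the two-sided exact permutation test. The procedure was tested on simulated data.

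Alternatives were no filter, an average rlog of at least 5, no trend, quantile normalization, sequencing batch as a covariate, all 40 libraries in 1 fit, the mouse as a block, and leaving out each of the 8 mice. All 5 libraries of a mouse carry its number in the labels, which therefore pairs the times but not the genotypes. Deviations from the group mean correlated with a median r of 0.290 between times of a mouse (68 of 80 pairs over 0.1) and of -0.091 between mice. Batch 1 held WT mice 25 and 88 and Cpeb4-/- mice 3 and 62, and batch 2 the others. The genes and lists were chosen with earlier results of these data known. All 10 genes are named; of each list, genes with the smallest adjusted p in a contrast; and for each gene whose group means span at least 1, the 3 closest by Pearson r, leaving out predicted genes. The lists of known targets, and of markers of T, dendritic, mast and stromal cells, neutrophils, megakaryocytes and erythroid cells came from general knowledge; 1 further marker list is not reported here. 3′UTRs were the longest per gene in GENCODE M21.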

Additional observations from a re-analysis of the deposited data

Results flagged for a closer look

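In 2 of 100 gene and group combinations, 1 library lay far from the other 3. Myc in Cpeb4-/- BMDMs at 6 hr was 9.33 in mouse 55, while the other libraries lay between 9.11 and 9.14. Cdkn2c in Cpeb4-/- BMDMs at 9 hr was 7.80 in mouse 62, against 8.00 to 8.03 in the others. By chance about 1 in 20 groups would be marked in this way.

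The change from untreated differed between the genotypes in 7 cases by limma's interaction test, and the size is given as Cpeb4-/- minus WT on the log2 scale. For Cdkn1b it was 0.47 (3 hr), 0.49 (6 hr) and 0.30 (9 hr), and for Ccnd3 it was 0.25 (6 hr) and 0.24 (9 hr). At 6 hr it was -0.35 for Myc and -0.35 for Ccnd1.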

How the results depend on the processing

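Of 1103 alternative values of the comparisons of the 10 genes that passed in at least 1 fit, 983 kept their direction and their side of the threshold, 72 no longer passed, 39 came to pass and 9 changed sign. Genotype calls among the 10 genes at 0 hr went from 1 to 0 without the filter on low values and to 2 with all 40 libraries in 1 fit and the replicate block. In the fit of all 40 libraries, with and without the replicate block, they went from 0 to 5 at 1 hr and from 2 to 4 at 9 hr. Both no filter and no trend took them from 5 to 3 at 6 hr. With the replicate block, the 1 hr genotype difference of Ccnd3 also passed (-0.12, limma adjusted p = 0.154 in the main fit). The block changed no other call among the 10 genes beyond those given with the results. Leaving out 1 mouse gave 0 to 1 calls at 0 hr, 0 to 3 at 1 hr (3 without WT mouse 69), 1 to 2 at 3 hr, 3 to 6 at 6 hr and 1 to 5 at 9 hr (5 without Cpeb4-/- mouse 2), and 1 to 4 (6 hr) and 0 to 3 (9 hr) interactions.

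Quantile normalization turned the sign of the change from untreated of Cdkn1b at 3 hr in WT (-0.054) and at 6 hr in Cpeb4-/- (-0.24), of Cdkn1a at 9 hr in WT (-0.13) and Cpeb4-/- (-0.072), of Ccnd1 at 1 hr in Cpeb4-/- (-0.20) and of Ccng2 at 6 hr in Cpeb4-/- (-0.21); the cause was not tested. Leaving out 1 mouse moved changes close to 0 across it: Ccnd1 at 1 hr between -0.030 and 0.00058 in WT and between -0.0075 and 0.040 in Cpeb4-/-, and Cdkn1b at 6 hr in Cpeb4-/- between -0.016 and 0.065. For genes of the other lists, 2038 alternative values of called comparisons still passed, 197 did not and 1 changed sign, that of Pcna at 1 hr in WT after quantile normalization (-0.092).

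Over all genes, calls between genotypes at 0, 1, 3, 6 and 9 hr numbered 171, 251, 481, 2129 and 1029, but 50, 53, 167, 1288 and 582 without the filter. With all 40 libraries in 1 fit they were 326, 4182, 1311 and 2280 at 0, 1, 3 and 9 hr (414, 4323, 1393 and 2378 with the replicate block). With batch as a covariate they were 146, 194 and 1781 at 1, 3 and 9 hr, and 230 at 3 hr without the trend. Without 1 mouse they ranged from 44 to 163, 40 to 2440, 76 to 2584, 1347 to 2331 and 387 to 4575, so the shares of all genes printed beside the counts move as widely. Interactions over all genes at 3, 6 and 9 hr numbered 27, 385 and 231, and 72, 1032 and 654 with the mouse as a replicate block. The 1 hr interaction count was 1, against 8 without the filter, and that of 6 hr was 227 after quantile normalization. Depth is not held in the table, so its limits could not be given.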
